A study of Homo sapiens with 12 samples.

Results

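The 4 genes FGF11, FGF12, FGF13 and FGF14 encode the intracellular fibroblast growth factor homologues, and they were chosen as the whole family, with earlier results of these data known, from the 55765 gene symbols on which reads were counted. Their RNA was followed in 12 RNA-seq libraries of SH-SY5Y, a human neuroblastoma cell line derived from the line SK-N-SH, in which all-trans retinoic acid (ATRA) induces neurites. All 12 libraries came from cells that received 10 μM ATRA for 7 days. In the co-treatment experiment, 3 treated cultures received hydrogen peroxide (H2O2) during the 7 days and 3 control cultures received ATRA alone. In the pre-treatment experiment, H2O2 was given to 3 treated cultures 72 h before ATRA began, and not to 3 control cultures. The study asked how oxidative stress before or during differentiation alters the RNA of the cells. The number given for the H2O2 dose was 10 in both sources, but the deposited description has mM and the methods of the study have μM, so the dose is not stated further here. All groups are cultures of 1 tumour line, and no undifferentiated cells were analysed here.

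The intracellular homologues are related in sequence to the secreted fibroblast growth factors, but they lack the signal peptide, stay inside the cell and are not known for acting through the FGF receptors in the classical way. They bind the cytoplasmic tails of the pore-forming alpha subunits of voltage-gated sodium channels and alter the inactivation and the location of the channels, mainly at the axon initial segment, where action potentials start. FGF14 is best known from cerebellar neurons, and changes in its gene cause a spinocerebellar ataxia. FGF13 is also known as a protein that binds microtubules in developing neurons, FGF12 acts on cardiac and neuronal sodium channels, and FGF11 is the least studied of the family.

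On the genome build hg19 (GRCh37), FGF14 lies on the minus strand of chromosome 13, from 102363154 to 103054807, FGF12 on the minus strand of chromosome 3, from 191857179 to 192485553, and FGF13 on the minus strand of chromosome X, from 137696888 to 138304939. FGF11 lies on the plus strand of chromosome 17, from 7341592 to 7348256. FGF11 is thus the compact member, with a gene of 6665 bases against 608052 to 691654 bases in the others. In the canonical transcript of each gene the protein is encoded in 5 coding exons, and coding exons 2, 3 and 4 are 111, 104 and 199 bases long in all 4 genes. The stretch below is shown because it tells how far reads of one member can be mistaken for another. It holds the last 79 bases of coding exon 4 and the first 11 bases of coding exon 5, on the coding strand, and capitals mark bases that differ from FGF14. The exon 4 pieces are chr13:102378962-102379040 (FGF14), chr17:7346033-7346111 (FGF11), chr3:191888247-191888325 (FGF12) and chrX:137717618-137717696 (FGF13), with FGF11 on the plus strand and the others on the minus strand.
FGF14: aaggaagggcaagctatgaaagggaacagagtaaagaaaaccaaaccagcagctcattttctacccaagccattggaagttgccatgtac
FGF11: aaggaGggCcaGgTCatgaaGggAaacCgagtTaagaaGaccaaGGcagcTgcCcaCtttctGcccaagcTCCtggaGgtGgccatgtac
FGF12: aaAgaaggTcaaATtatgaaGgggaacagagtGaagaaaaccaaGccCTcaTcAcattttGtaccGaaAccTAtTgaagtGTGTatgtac
FGF13: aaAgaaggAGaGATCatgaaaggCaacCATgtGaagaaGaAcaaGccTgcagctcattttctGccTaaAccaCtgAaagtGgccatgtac
Of these 90 bases, 52 were identical in all 4 genes, and FGF11, FGF12 and FGF13 differed from FGF14 at 21, 21 and 22 of them. Over the aligned coding sequences, identity between members ran from 59.1% (FGF11 and FGF14) to 72.7% (FGF12 and FGF14), and the longest run of identical bases shared by 2 members was 17 (FGF13 and FGF14). Sequencing used 150 cycles, so no shared run approached the length of a read.

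The files held between 27576276 and 98287391 reads counted on genes per library. Control replicate 3 of the pre-treatment experiment stood apart from its group. It had 0.200 reads outside annotated genes per counted read, against 0.800 and 0.830 in control replicates 1 and 2 and 0.263 to 0.462 in the other 9 libraries. Small structured RNAs took 17.6% of its counted reads, against 1.58% and 2.88% in control replicates 1 and 2 and 13.3% to 15.1% in the treated replicates. In the co-treatment libraries they took 5.04% to 13.0%. On both measures control replicates 1 and 2 also lay outside the range of all other libraries. The clustering shown by the study left control replicate 3 out, so each pre-treatment value is given over 5 libraries (without it) and over all 6. The values over 5 libraries thus rest on 2 controls that are themselves unlike the other libraries. Defining markers of the line were present. The summed level of 6 noradrenergic neuroblast genes was 816 to 2088 CPM (read counts scaled to a common library size) in all libraries, although TH, one of the 6, had only 13 counts in the 3 co-treatment controls together. The summed level of 6 glial genes was 5.42 to 8.37 CPM. The labels do not say how replicate cultures were separated, so p-values measure the spread between these libraries, which may be partly technical.

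FGF14, FGF11 and the lower pair FGF12 and FGF13 differed far more in level than any treatment moved FGF14 or FGF11. FGF14 was counted 399 to 3423 times per library, FGF11 14 to 105 times, FGF12 0 to 16 times and FGF13 0 to 4 times. To compare genes, CPM scaled by edgeR's TMM factors were divided by the length of all annotated exons of the gene. On this per-length scale the median level over 12 libraries was 1.59 CPM per kb for FGF14 (0.620 to 2.93), 0.147 for FGF11 (0.0806 to 0.332), 0.00498 for FGF12 (0 to 0.0145) and 0 for FGF13 (0 to 0.00284). The ranges of FGF14 and FGF11 did not overlap, nor did those of FGF11 and FGF12, whereas FGF12 and FGF13 overlapped and could not be ordered at these counts. FGF14 made up a median of 88.1% of the summed per-length level of the family (77.6% to 96.9%). With the longest transcript as the length of each gene, the median share of FGF14 was 80.9% and that of FGF11 rose from 11.1% to 17.9%.

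**Figure D1:**
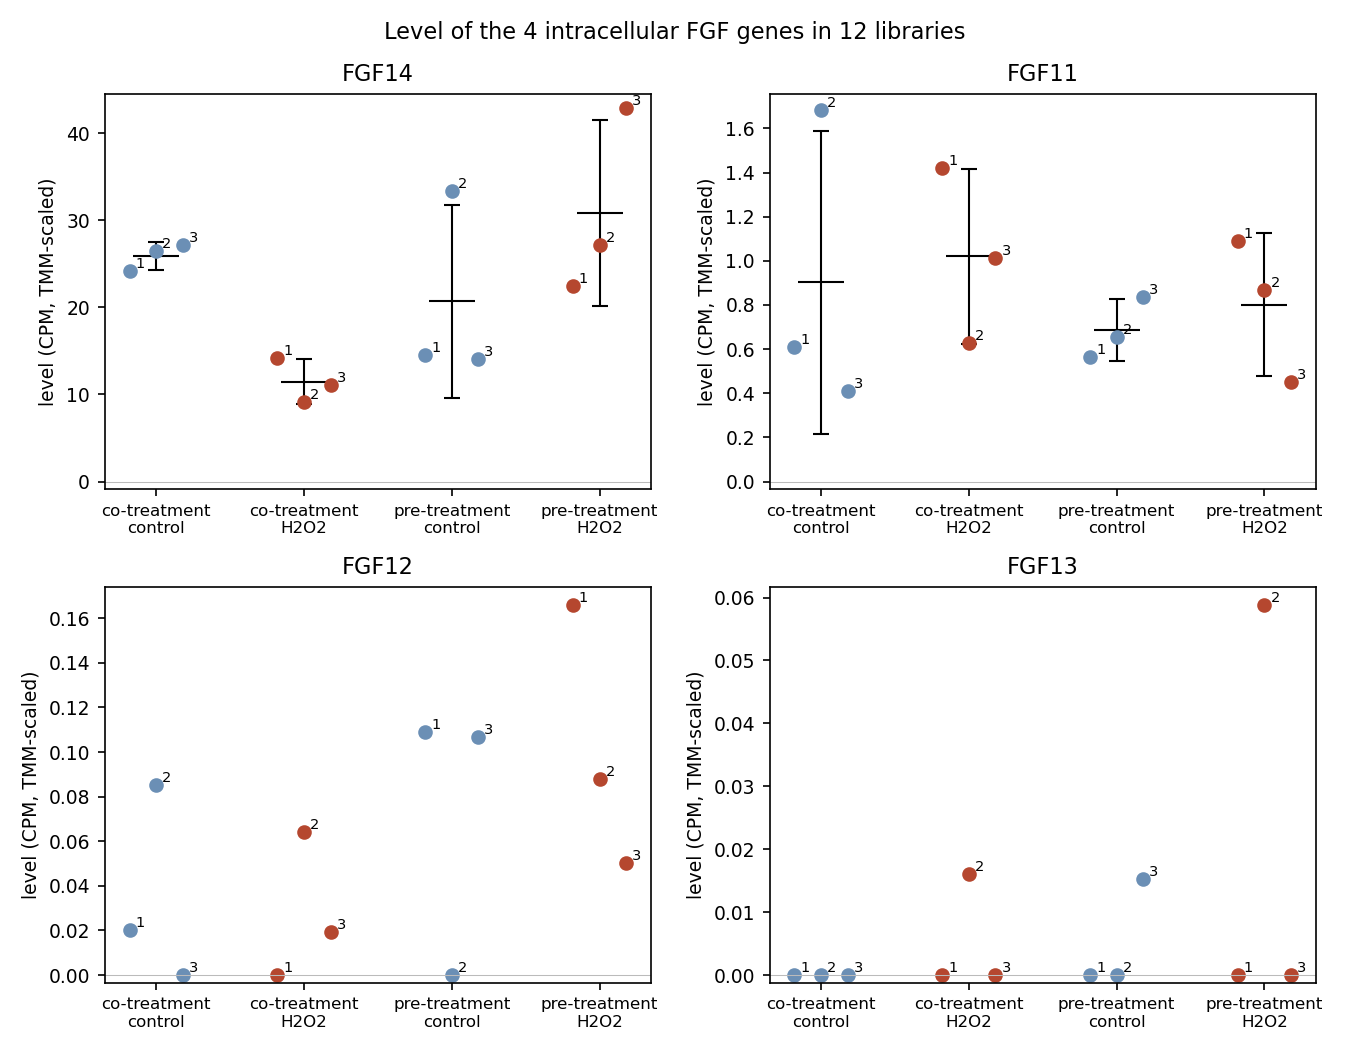
Level of each member in CPM (vertical axes, each starting at 0) in the 12 libraries, by group, with the replicate number beside each point. In the FGF14 and FGF11 panels the long dash is the group mean and the bar its SD (n = 3). FGF14 in the co-treated libraries lies between 9.07 and 14.2 CPM, below the 3 control libraries at 24.1 to 27.2, while the other panels show overlapping groups.

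FGF14 fell when H2O2 was present during differentiation. The 3 control libraries held 1183, 1240 and 931 reads on FGF14, which is 24.1, 26.4 and 27.2 CPM. The 3 co-treated libraries held 399, 565 and 572 reads, which is 14.2, 9.07 and 11.1 CPM. Every treated library lay below every control library. How many of all genes tested had groups apart in this way was not counted, here or for the genes below. The control mean was 25.9 ± 1.61 CPM (SD, n = 3), and the mean with H2O2 was 11.5 ± 2.57 CPM (SD, n = 3). The log2 fold change, treated minus control (log2FC), was -1.18 with a standard error of 0.17 and a 95% interval of -1.55 to -0.82, so the level in treated cells was 0.441 of that in control cells (adjusted p = 0.00749, edgeR quasi-likelihood test with Benjamini-Hochberg adjustment over 22089 genes). Genes were called in this comparison at a false discovery rate below 0.05 with an absolute log2FC above 0.6. FGF14 was the only one of the 2 members tested that was called, against 0.598% of all genes tested, and it ranked 36 by p. In bulk RNA, fewer cells that express FGF14 and less FGF14 RNA per cell cannot be told apart.

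The fall of FGF14 had the same direction in all 19 alternative analyses, with log2FC values between -1.36 and -1.04. Its call was lost without treated replicate 3 (log2FC -1.16, adjusted p = 0.094) and when both experiments shared 1 estimate of the spread (adjusted p = 0.469).

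FGF14 was not called after pre-treatment. The 3 control libraries held 800, 1526 and 925 reads, which is 14.5, 33.4 and 14.1 CPM, and the 3 treated libraries held 2169, 1847 and 3423 reads, which is 22.5, 27.1 and 42.9 CPM. The groups overlapped, because control replicate 2 lay above treated replicates 1 and 2. The control mean was 20.7 ± 11.04 CPM (SD, n = 3), and the mean with H2O2 was 30.8 ± 10.7 CPM (SD, n = 3), a spread in each group several times that of the co-treatment controls. Over 5 libraries the log2FC was 0.44 (standard error 0.36, 95% interval -0.39 to 1.27, adjusted p = 0.401), and over 6 it was 0.61 (standard error 0.38, 95% interval -0.25 to 1.47, adjusted p = 0.575), both in edgeR's quasi-likelihood test. At a false discovery rate below 0.05 with an absolute log2FC above 1, 0 of the 3 members tested over 5 libraries were called, where 11.2% of 26350 genes were, and 0 of 2 over 6 libraries, where 0.0242% of 24743 genes were. In these fits 10671 and 2776 of all genes tested had an unadjusted p under 0.05, and 0 of the members did. With edgeR's exact test, DESeq2 and limma-voom, 0 members were called as well. The estimate over 5 libraries turned on the 2 controls, since it was -0.03 without control replicate 1 and 1.16 without control replicate 2.

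**Figure D2:**
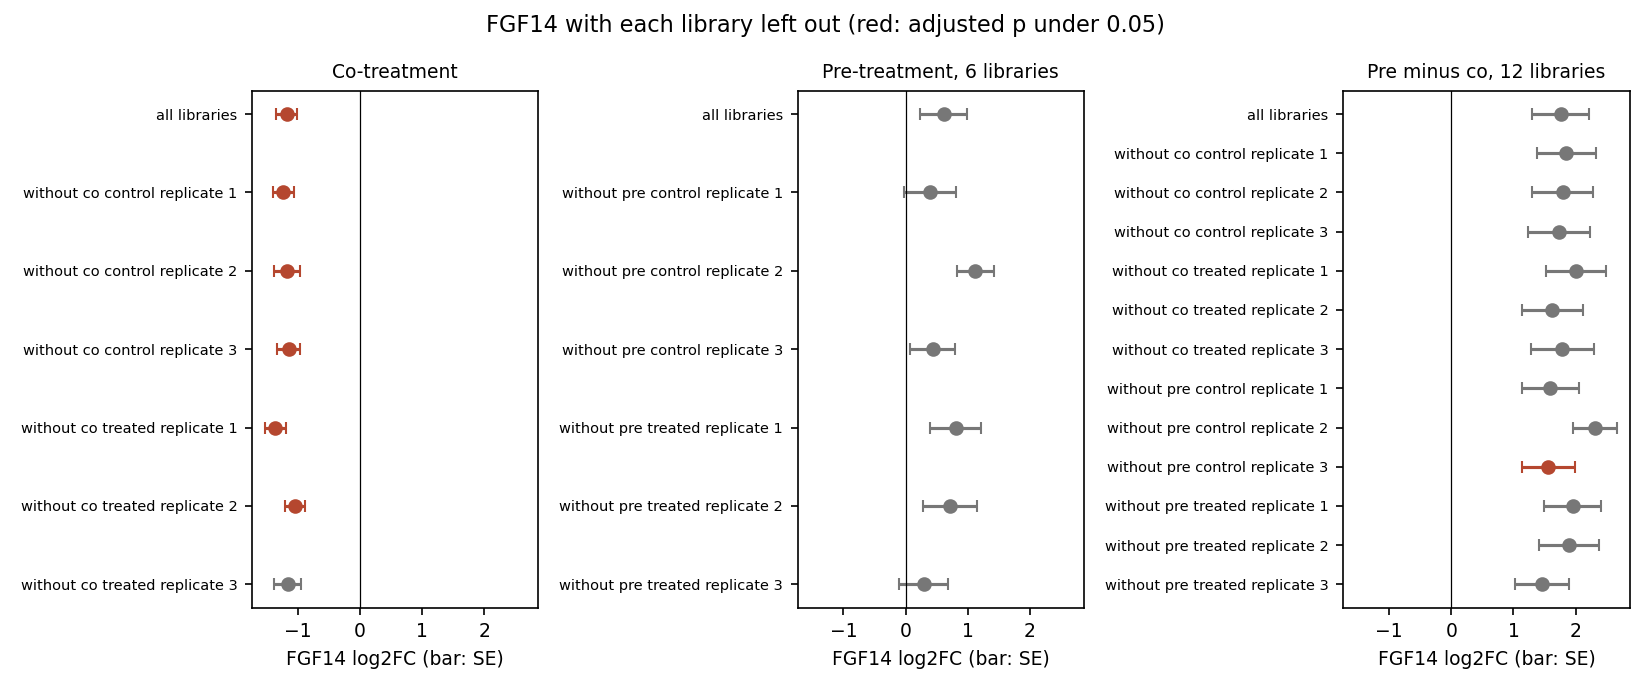
Log2FC of FGF14 (horizontal axis, bar: standard error) with all libraries and with each library left out, after co-treatment, after pre-treatment and as the pre-treatment log2FC minus the co-treatment log2FC. Red points have an adjusted p under 0.05. The co-treatment values stay between -1.36 and -1.04, the pre-treatment values between 0.29 and 1.12, and the difference between 1.46 and 2.31.

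The responses of FGF14 in the 2 experiments were compared as the interaction of treatment and experiment. The pre-treatment log2FC exceeded that after co-treatment by 1.76 over 12 libraries (standard error 0.45, 95% interval 0.78 to 2.74, adjusted p = 0.398, edgeR quasi-likelihood test). Over 11 libraries, without pre-treatment control replicate 3, it exceeded it by 1.56 (standard error 0.42, 95% interval 0.66 to 2.47, adjusted p = 0.0386, same test). At a false discovery rate below 0.05, 0 of 2 members were thus called over 12 libraries, where 0.0287% of 24407 genes were (1 of 2 at an unadjusted p under 0.05, and 1 of 2 with DESeq2), and 1 of 2 over 11 libraries, where 8.02% of 25668 genes were. The call over 11 libraries rested on single libraries. It was lost without co-treatment control replicate 2 or 3, co-treated replicate 2 or 3, pre-treatment control replicate 1 or pre-treated replicate 2 or 3, with adjusted p-values of 0.0535 to 0.0921. The controls of the 2 experiments themselves differed in spread, at 24.1 to 27.2 CPM for co-treatment and 14.1 to 33.4 CPM for pre-treatment.

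FGF11, the second member by level, showed no difference that passed a test. Its co-treatment controls were at 0.612, 1.68 and 0.409 CPM (30, 79 and 14 reads) and the treated libraries at 1.42, 0.626 and 1.01 CPM (40, 39 and 52 reads). The groups overlapped, and the log2FC was 0.14 with a standard error of 0.51 and a 95% interval of -0.97 to 1.25 (adjusted p = 0.980, edgeR quasi-likelihood test). At this depth a change of nearly 1 on the log2 scale, in either direction, lies within that interval. The spread among the 3 co-treatment controls alone (0.902 ± 0.685 CPM, SD, n = 3) exceeded the difference between the group means. The pre-treatment controls were at 0.562, 0.657 and 0.838 CPM and the treated libraries at 1.09, 0.866 and 0.451 CPM. The log2FC was 0.47 over 5 libraries (standard error 0.44, adjusted p = 0.452) and 0.25 over 6 (standard error 0.44, adjusted p = 0.842) in edgeR's quasi-likelihood test. Treated replicate 3 was the lowest of these 6 libraries for FGF11 and the highest for FGF14.

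FGF12 and FGF13 were at the limit of detection. FGF12 had 1, 4 and 0 reads in the co-treatment controls, 0, 4 and 1 in the co-treated libraries, 6, 0 and 7 in the pre-treatment controls and 16, 6 and 4 in the pre-treated libraries. It passed the filter on low counts only over the 5 pre-treatment libraries, where the log2FC was 0.89 with a standard error of 1.12 (adjusted p = 0.584, edgeR quasi-likelihood test). FGF13 had 1 read in co-treated replicate 2, 1 in pre-treatment control replicate 3 and 4 in pre-treated replicate 2, and none in the other 9 libraries, so it was not tested. A count of 0 allows up to 3 counts, which is 0.0311 CPM in the deepest and 0.107 CPM in the shallowest library. The 95% interval of the FGF12 log2FC was -1.66 to 3.45, so smaller changes of this gene were not detectable at this depth.

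Several other genes with reads are annotated across FGF14. The annotation has 8 FGF14 transcripts. The starts of 6 of them lie within a cluster at the upstream end of the gene, and the canonical transcript starts 485.5 kb further downstream. FGF14-AS2, FGF14-IT1 and FGF14-AS1 are long non-coding RNAs whose near ends lie 6.8, 7.9 and 28.8 kb from the most upstream start. FGF14-AS1 and FGF14-AS2 run on the opposite strand and share no exon base with FGF14, and FGF14-IT1 runs on the same strand and shares 243. At the other end, ITGBL1 (integrin subunit beta like 1, an extracellular matrix protein gene on the opposite strand, chromosome 13, 102104944 to 102373206) ends inside FGF14, and 4356 of its 6176 exon bases (70.5%) lie on FGF14 exons. The libraries were made with a stranded kit, but the strand setting of the counting is not given in the sources used here, so reads from these shared bases cannot be assigned to FGF14 or ITGBL1 with certainty. Counts per gene do not separate the FGF14 transcripts from one another.

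**Figure D3:**
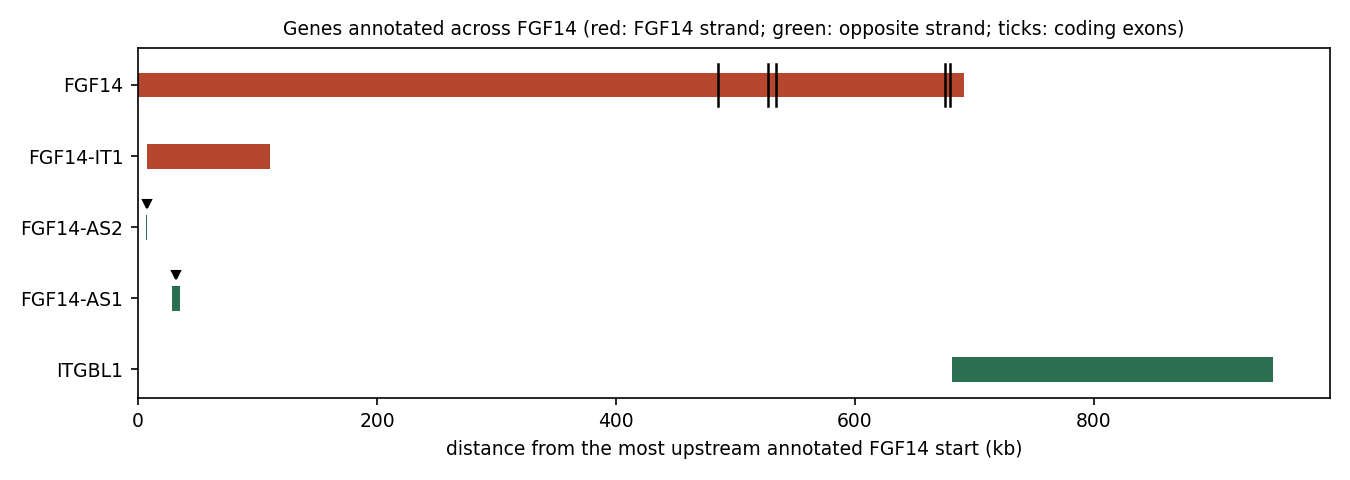
Genes annotated across FGF14, drawn to scale by their distance in kb from the most upstream FGF14 start (horizontal axis). Red bars lie on the FGF14 strand, green bars on the opposite strand, black ticks are the 5 coding exons of the canonical transcript, and triangles point out the 2 shortest genes. The non-coding genes sit at the upstream end and ITGBL1 at the downstream end, beyond 681.6 kb.

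ITGBL1 ran with FGF14 from library to library. After co-treatment its controls were at 2.81, 2.56 and 2.72 CPM and its treated libraries at 1.32, 1.48 and 0.875 CPM, without overlap. The log2FC of ITGBL1 was -1.14 (standard error 0.28), but it was not called (adjusted p = 0.129, edgeR quasi-likelihood test). After pre-treatment its controls were at 1.74, 4.71 and 1.39 CPM and its treated libraries at 2.97, 3.201 and 7.30 CPM, so control replicate 2 and treated replicate 3 were the highest of their groups, as for FGF14. The log2FC of ITGBL1 was 0.55 over 5 libraries (adjusted p = 0.438) and 0.82 over 6 (adjusted p = 0.592) in edgeR's quasi-likelihood test. The part that the shared exon bases have in this likeness was not tested.

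The non-coding RNAs at the upstream end were not called in any comparison. FGF14-AS2, the most abundant of them, was at 8.15, 8.53 and 10.0 CPM in the co-treatment controls and at 6.50, 8.24 and 7.72 CPM in the co-treated libraries, which gave a log2FC of -0.24 (standard error 0.17, 95% interval -0.61 to 0.14, adjusted p = 0.815). The log2FC of FGF14-IT1 was -0.27 (standard error 0.36, adjusted p = 0.919) and that of FGF14-AS1 -0.33 (standard error 0.50, adjusted p = 0.932), both in edgeR's quasi-likelihood test as well. The interval of FGF14-AS2 does not reach the estimate for FGF14, while those of FGF14-IT1 (-1.06 to 0.51) and FGF14-AS1 (-1.41 to 0.75) are wide, and the differences between these genes were not tested. Per read counted on FGF14, there were 0.338, 0.323 and 0.367 reads on FGF14-AS2 in the co-treatment controls and 0.459, 0.908 and 0.694 in the co-treated libraries. FGF14-IT1 and FGF14-AS1 were both lowest among the pre-treatment libraries in control replicate 3, at 1.10 and 0.549 CPM, against 7.29 and 12.04 CPM for FGF14-IT1 in control replicates 1 and 2. That library is also the one with the fewest reads outside genes, and the part of this in the levels of the 2 RNAs was not tested.

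**Figure D4:**
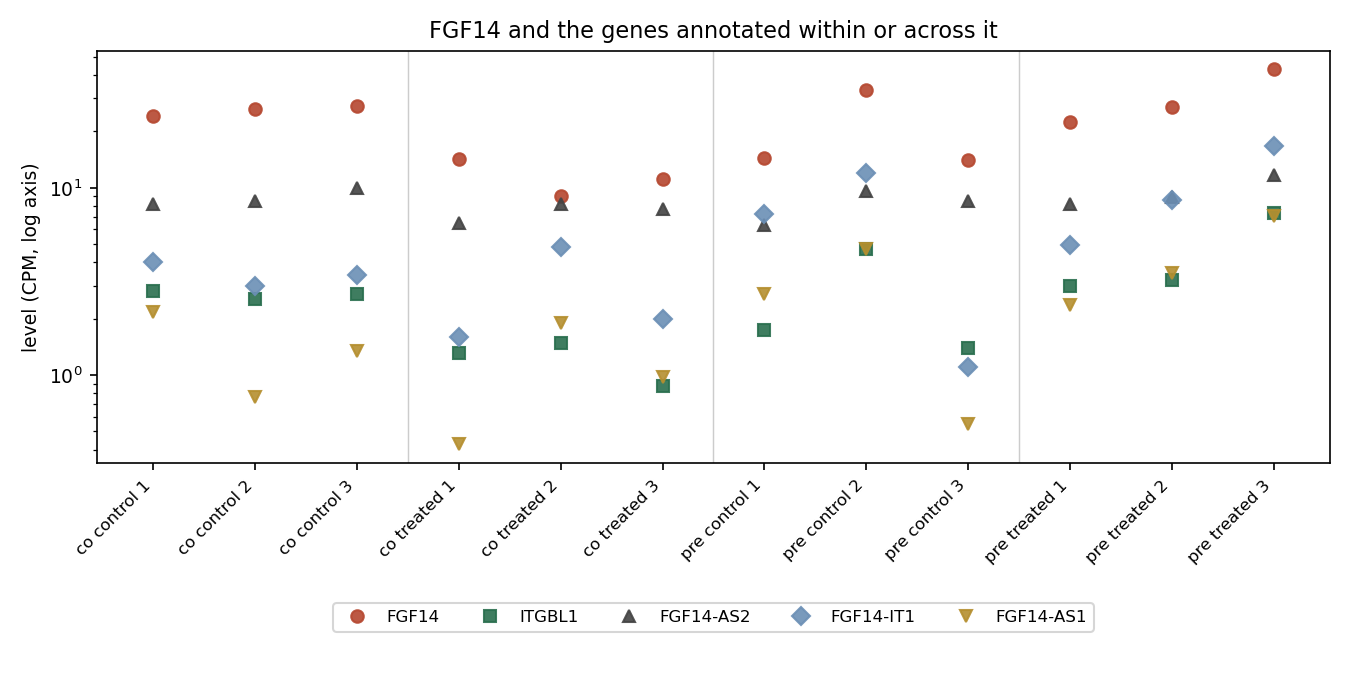
Level (CPM, log axis) of FGF14, ITGBL1, FGF14-AS2, FGF14-IT1 and FGF14-AS1 in each of the 12 libraries, in the order of the groups. FGF14 and ITGBL1 are both lower in the co-treated libraries than in their controls, FGF14-AS2 stays between 6.35 and 11.7 CPM throughout, and FGF14-IT1 and FGF14-AS1 vary most in the pre-treatment experiment.

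Around the other members, few genes passed the filter on low counts. TMEM102 and CHRNB1, a subunit of the muscle acetylcholine receptor, lie 594 and 124 bases from FGF11, and neither was called in any comparison. A pair of unnamed long non-coding genes share 4169 and 1420 exon bases with FGF11 on the same strand. Their identifiers are not among the symbols of the count files, which may hold them under older names. Whether reads from the shared bases were counted on FGF11, on those genes or as ambiguous is therefore not known. The effect on the level of FGF11, and so on the share of FGF14 in the family, is not known either. FGF12-AS1, FGF12-AS2, FGF12-AS3 and FGF13-AS1 had 0 to 2 reads per library. MB21D2, which lies 29051 bases beyond the upstream end of FGF12, was at 5.88, 5.63 and 7.19 CPM in the pre-treatment controls and at 12.2, 11.3 and 7.81 CPM in the pre-treated libraries, without overlap. Its log2FC was 0.93 over 5 libraries (standard error 0.23, adjusted p = 0.0204), under the threshold of 1, and 0.77 over 6 (standard error 0.24, adjusted p = 0.324), both in edgeR's quasi-likelihood test.

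The genes whose levels ran most like FGF14 over the 12 libraries, among 13779 candidates with an average log2 CPM of at least 1, were PPAP2B (Pearson r = 0.938, Spearman rho = 0.923), ITGBL1 (r = 0.928, rho = 0.867) and ZNF608 (r = 0.923, rho = 0.888). PPAP2B encodes a lipid phosphate phosphatase and ZNF608 a zinc finger protein. Within the 6 co-treatment libraries r was 0.960, 0.866 and 0.953, and within the 6 pre-treatment libraries 0.916, 0.988 and 0.905. Without the 2 libraries farthest from the median of FGF14 it was 0.919, 0.961 and 0.870. These are the highest of many correlations across libraries that share their treatment and their depth, and they are given as a description. PPAP2B and ZNF608 were themselves called after co-treatment, with log2FC values of -1.54 (standard error 0.20, adjusted p = 0.00505) and -0.80 (standard error 0.13, adjusted p = 0.0187), in edgeR's quasi-likelihood test. These genes were picked by their likeness to FGF14 in the same libraries, so their calls are no separate support. For FGF11 the most alike were SYTL1 (r = 0.865), NEU3 (r = 0.853) and PLA2G6 (r = 0.830) among 13780 candidates, and none of these 3 was called in any comparison.

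None of the listed partners and relatives of the family was called after co-treatment. Of the 7 pore-forming sodium channel alpha subunits that were tested (of 9 listed), none was called, and their median log2FC was 0.09, against -0.00095 over all 22089 genes. SCN3A, the alpha subunit with the highest CPM, had a log2FC of -0.06 ± 0.12 (standard error). SCN8A, the main alpha subunit of the mature axon initial segment, had one of 0.09 ± 0.12 (standard error), and the adjusted p-values of the pair were 0.958 and 0.920. None of the 4 beta subunits, of the 7 genes of the axon initial segment, of the 6 tested FGF receptors and co-receptors, of the 5 tested partners and kinases and of the 7 tested secreted FGFs was called either, with medians of 0.33, -0.01, -0.08, -0.01 and 0.18. At an unadjusted p under 0.05 there were 4 of these 36 tested genes in edgeR's quasi-likelihood test (FGF1, SCN2B, SCN4B and KCNQ3), against 8.15% of all genes. SCN4B, a beta subunit, had the largest of the 36 log2FC values, 1.32 (standard error 0.29, adjusted p = 0.0767, same test), with 1.198 to 2.39 CPM in the controls and 4.09 to 6.14 CPM in the treated libraries, which did not overlap. FGF1, the secreted FGF with the highest CPM, had a log2FC of -0.60 (standard error 0.15, adjusted p = 0.154 in edgeR's quasi-likelihood test). Its controls were at 19.8 to 28.2 CPM and its treated libraries at 15.0 to 16.4 CPM, without overlap. FGFR1, the receptor with the highest CPM, had a log2FC of -0.17 (standard error 0.20, adjusted p = 0.900). After pre-treatment FGF1 was not called, with 27.0 to 27.5 CPM in the controls and 34.0 to 38.2 CPM with H2O2. Its unadjusted p there was under 0.05 over 5 and over 6 libraries in edgeR's quasi-likelihood test.

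After pre-treatment over 5 libraries, 7 of the listed genes were called, in a comparison that called 11.2% of all genes. At an unadjusted p under 0.05 there were 17 of the 36 tested genes in edgeR's quasi-likelihood test, against 40.5% of all genes. Both called receptors were higher. FGFR2, a receptor of the secreted FGFs, rose from 0.635 and 0.482 CPM in control replicates 1 and 2 to 2.00, 1.48 and 2.68 CPM with H2O2 (log2FC 1.94, adjusted p = 0.00745). FGFRL1, a receptor without a kinase domain, rose from 0.1995 and 0.1095 CPM to 0.725, 0.573 and 0.876 CPM (log2FC 2.27, adjusted p = 0.0119). Its counts were low, with 11 and 5 reads in these controls and 70, 39 and 70 in the treated libraries. Among the beta subunits, SCN3B was lower, from 68.9 ± 6.41 CPM (SD, n = 2) to 24.6 ± 3.13 CPM (SD, n = 3) (log2FC -1.42, adjusted p = 0.000996), and SCN2B higher (log2FC 1.31, adjusted p = 0.0442). ANK3, which encodes the scaffold ankyrin-G of the axon initial segment, and NFASC, which encodes the adhesion molecule neurofascin, had log2FC values of -1.25 (adjusted p = 0.00712) and -1.39 (adjusted p = 0.00107). GSK3B, a kinase that acts on the complex of FGF14 and the channel, had a log2FC of -1.08 (adjusted p = 0.000996). All 7 p-values come from edgeR's quasi-likelihood test.

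None of these 7 calls held over all 6 libraries, where the adjusted p-values were 0.266 to 0.516 in the same test and 12 of the 36 genes had an unadjusted p under 0.05, against 11.2% of all genes. In control replicate 3, the 4 genes that were lower were within or below the range of the treated libraries. SCN3B, for example, was at 64.3, 73.4 and 23.5 CPM in control replicates 1 to 3 and at 22.5, 28.2 and 23.1 CPM in the treated libraries. GSK3B was at 231, 226 and 101 CPM in the controls and at 95.4, 108 and 105 CPM in the treated libraries. For FGFR2, control replicate 3 was at 0.335 CPM, below the other 2 controls, so these groups did not overlap over 6 libraries (log2FC 2.12, adjusted p = 0.266).

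**Figure D5:**
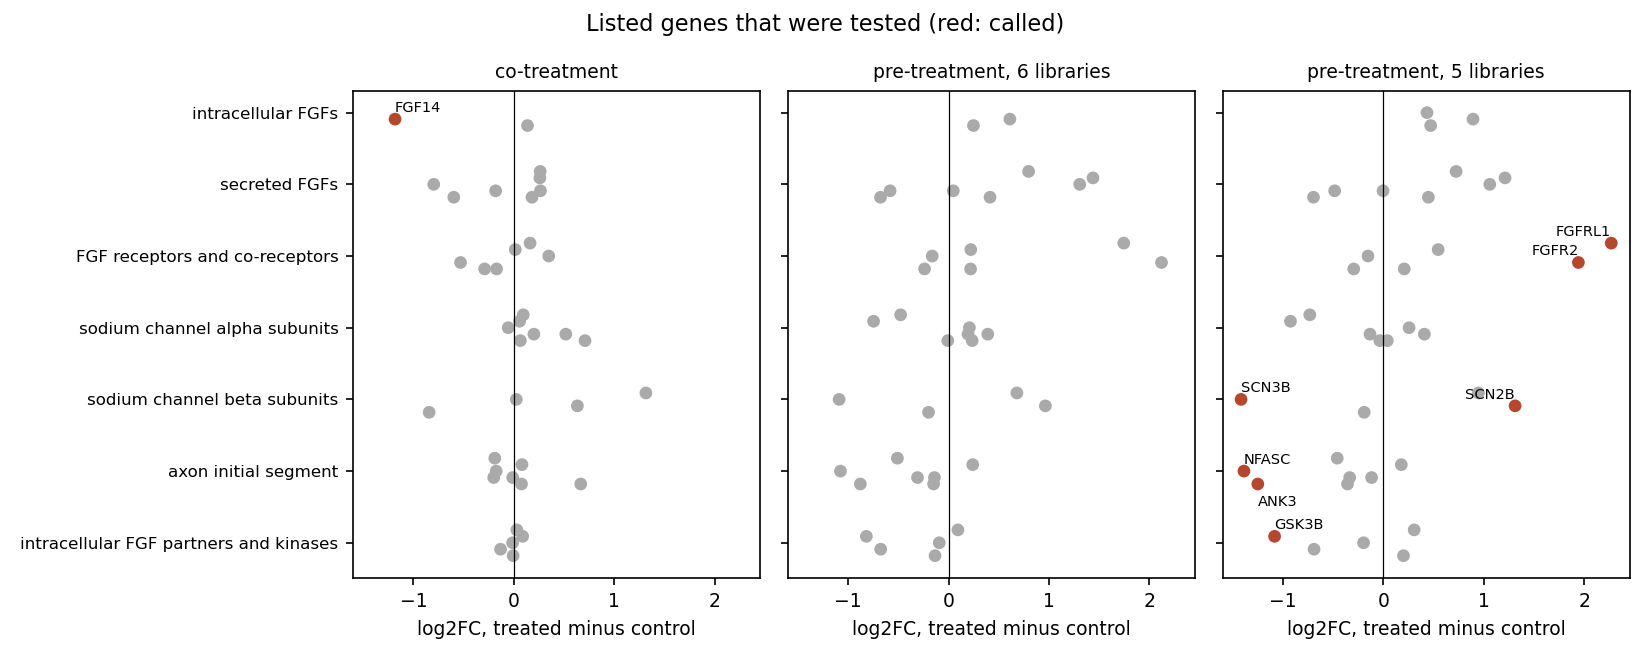
Log2FC, treated minus control (horizontal axis), of each tested gene of the family and of 6 lists of its relatives and partners, in the co-treatment comparison and in the pre-treatment comparison over 6 and 5 libraries. Each point is a gene, red where it was called. FGF14 is the 1 called gene after co-treatment, none is called over 6 pre-treatment libraries, and 7 are called over 5.

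Markers of cell state were set beside the fall of FGF14 by the summed level of each list, which was not tested. The summed level of 6 noradrenergic neuroblast genes was 1422 to 1978 CPM in the co-treatment controls and 1064 to 1436 CPM in the co-treated libraries, so the groups overlapped. That of 7 substrate-adherent or mesenchymal genes was 241.9 to 304.1 CPM in the controls and 339.3 to 364.9 CPM in the treated libraries, without overlap. Most of this sum came from FN1 (mean 109 CPM in the controls and 155 with H2O2) and S100A6 (128 and 157 CPM). For each of these genes alone the groups overlapped. Of these lists, 0 of 5 noradrenergic and 1 of 7 mesenchymal genes tested were called. The called gene was VIM, which encodes the intermediate filament protein vimentin, with 9.85, 5.76 and 6.20 CPM in the controls and 15.5, 15.3 and 17.8 CPM in the treated libraries (log2FC 1.16, standard error 0.21, adjusted p = 0.0272, edgeR quasi-likelihood test). The other 6 mesenchymal genes were not called. Their log2FC values ran from -1.65 for COL1A1, a collagen gene (standard error 0.67, adjusted p = 0.524), to 1.17 for CD44 (standard error 0.46, adjusted p = 0.491), and the median of the list was 0.51. After pre-treatment, where FGF14 was not called, the summed mesenchymal level overlapped between the groups, at 225.1 to 353.4 CPM in the controls and 225.3 to 326.5 CPM in the treated libraries. In that comparison 3 of the 7 genes were called over 5 libraries (VIM, CD44 and YAP1, all higher, with a median of 0.62 for the list) and 1 over 6 (VIM, log2FC 2.42, adjusted p = 0.0442, edgeR quasi-likelihood test, with a median of 0.02 for the list). The summed level of 7 neuronal genes was 2719 to 3096 CPM in the co-treatment controls and 2480 to 2835 CPM in the co-treated libraries, so these groups overlapped too, with 0 of 7 called. After pre-treatment the noradrenergic sum did not overlap between the groups. It was 1236 to 2088 CPM in the controls and 816 to 1152 CPM in the treated libraries. Over 5 libraries 2 of the 5 noradrenergic genes tested were called, both lower, with a median of -0.73 for the list. Over 6 libraries 0 were called, with a median of -0.78. The neuronal sum overlapped (2325 to 3263 and 2687 to 2851 CPM), with 1 of 7 called over 5 libraries and 0 over 6. The part of the mesenchymal and noradrenergic genes in the level of FGF14 was not tested.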

How the data were processed

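Sequencing used total RNA without ribosomal RNA. The authors deposited raw counts per gene symbol for each library. Per the labels and the submitters' processing notes, reads were trimmed (cutadapt 2.10, FastQC 0.11.8), mapped to hg19 (HISAT2 2.1.0) and counted (HTSeq 0.7.2). The annotation version and the strand setting are not given in the sources used here. A further 2 files hold the authors' own comparisons (fold changes and p-values) and were not used. The 5 closing entries for reads not counted on a gene were 40.0% to 59.9% of all entries per library and stayed out of library sizes and tests.

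The tests were run with edgeR 4.0.16 in R 4.3.3 (TMM factors, quasi-likelihood test, Benjamini-Hochberg adjustment over all genes tested), limma 3.58.1 and DESeq2 1.42.0. A gene was tested if its CPM was no lower than 5 counts represent in the shallowest library, in as many libraries as the smaller group has. Each experiment was fitted alone, and the interaction over both. The scripts were tested on simulated counts. Lengths, positions and coding sequences come from GENCODE v44 lifted to GRCh37, aligned with MAFFT 7.526. The members, the gene lists and the tests were chosen with earlier results of these data known. Named genes are the members, genes across or next to them, listed genes that were called or have the highest CPM of their list, and the 3 genes most correlated with each tested member. No label ties libraries of the same number to each other, so no block was used in the reported values.

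Alternatives were other tests, scalings and filters, robust estimation, a block for the replicate number, both experiments in 1 fit, no threshold on the log2FC, removal of small structured RNAs, the longest transcript as length, and each library left out.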

Additional observations from a re-analysis of the deposited data

Results flagged for a closer look

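FGF14 was called for a difference between the responses over 11 libraries, as were 8.02% of all genes tested. The call was lost in 9 of 21 alternatives, most of them with 1 library left out. The pre-treatment log2FC exceeded that after co-treatment by 1.56 (standard error 0.42, adjusted p = 0.0386, interaction term in edgeR's quasi-likelihood test), and over all 12 libraries by 1.76 with an adjusted p of 0.398. FGF14 was below the control range in 3 of 3 co-treated libraries, while the pre-treatment groups overlapped.

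MB21D2, the gene next to FGF12, also had a larger log2FC after pre-treatment than after co-treatment over 11 libraries, by 1.17 (standard error 0.34, adjusted p = 0.0485, same test), and over 12 libraries by 1.04 (adjusted p = 0.511). Its co-treatment log2FC was -0.29 (standard error 0.22, adjusted p = 0.817). Over 11 libraries 8.02% of all genes tested passed this threshold.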

How the results depend on the processing

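After co-treatment the count of members called went from 1 to 0 with both experiments in 1 fit and without treated replicate 3, so that it was 0 to 1 over the libraries left out. The log2FC of FGF14 was between -1.36 and -1.04 in all 19 alternatives, and 17 of them kept the call. For the difference over 12 libraries the count went from 0 to 1 with DESeq2 (FGF14 1.75, adjusted p = 0.0399), with no filter on low counts (1.79, adjusted p = 0.000675) and without pre-treatment control replicate 3, a range of 0 to 1 over the libraries left out. For that over 11 libraries it went from 1 to 0 with library size only (1.36, adjusted p = 0.0663) and with robust estimation (adjusted p = 0.0644), and was 0 to 1 over the libraries left out, with log2FC values of 1.15 to 2.35 for FGF14. The cause was not tested. After pre-treatment the count stayed 0 in all alternatives. Values that changed sign when 1 library was left out were the log2FC of FGF11 after co-treatment (-0.20 to 0.95), after pre-treatment over 6 libraries (-0.034 to 0.53) and in the difference over 12 (-0.71 to 0.43) and 11 libraries (-0.49 to 0.65), of FGF14 over 5 pre-treatment libraries (-0.029 to 1.16) and of FGF12 there (-0.0079 to 5.93). The FGF11 difference over 12 libraries was also negative with limma-voom (-0.043) and with the replicate block (-0.20). With the replicate block FGF14 had a log2FC of -1.20 (adjusted p = 0.00304) with co-treatment, and one of 0.23 (adjusted p = 0.291) for the 5 pre-treatment libraries, and the block changed no call of a member. Same-numbered libraries correlated by -0.0786 to -0.0435 (co-treatment) and -0.273 to 0.0264 (pre-treatment) in their deviations from the group means. These values gave no sign of a pairing by number, but 3 libraries per group are too few to exclude one. The share of FGF14 in the family was 88.1% with all exons and 80.9% with the longest transcript as length.

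Over all genes, 132 were called after co-treatment (3 to 443 over the alternatives, lowest with both experiments in 1 fit and highest with no filter), 2952 after pre-treatment over 5 libraries (1064 to 6871), 6 over 6 libraries (0 to 2952), and 7 and 2058 in the difference over 12 (0 to 2058) and 11 libraries (321 to 4499). Depth limits FGF12 and FGF13, which have 49 and 6 reads in all 12 libraries together.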
